A study of Mus musculus with 43 samples.

Results

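The genes described here carry out DNA replication and cell division. A list of 36 such genes was taken by symbol, and 35 of them were among the 19752 genes with a probe set of their own on the arrays. The remaining gene, Ccnb1, was not analysed here. Each gene was read from 1 probe set, the brightest of those carrying its symbol, and Pcna was the only listed gene with more than 1. Levels are given as log2 of the deposited intensity, and a level was compared between arrays and never between genes.

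RNA was measured on 43 Affymetrix Mouse Gene 1.0 ST arrays of immune cells from male C57BL/6 mice aged 6 weeks, with no genetic modification labelled. Interferon mice received 10000 U of interferon alpha under the skin and were sampled 2 h later, and the baseline mice carry no label for a vehicle injection. Cells were sorted by FACS straight into TriZol, from spleen or, for macrophages, from the peritoneal cavity. The sorts were regulatory T cells (CD4+ CD25+), CD8+ and CD4+ T cells, gamma-delta T cells (TCRgd+, or gdT+ TCRB- in baseline replicates 1 and 2), NK cells (NK1.1+ TCRb- in baseline replicates 1 and 2, NK1.1+ otherwise), NKT cells (NK1.1+ TCRb+, but Nk1.1+ in baseline replicates 1 and 2), CD11c+ Flt3+ dendritic cells, F4/80+ macrophages and Ly6G+ neutrophils. Each type had 3 baseline arrays and 2 interferon arrays, except neutrophils with 2 baseline arrays and macrophages with 1 interferon array.

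A dividing cell copies its chromosomes in S phase and separates them in mitosis. Cyclins are the regulatory subunits that switch on the cyclin-dependent kinases, the MCM helicase and the Pcna clamp serve the replication fork, and kinesins and mitotic kinases build and police the spindle. Most of these genes are transcribed in waves under E2F, MYB and FOXM1 factors, so in a sorted population their RNA is low when few cells are cycling. Most resting lymphocytes and mature neutrophils are non-dividing cells, while dendritic cells of the spleen and macrophages of the peritoneal cavity can divide in place. In these bulk samples fewer cycling cells and less RNA per cycling cell cannot be told apart.

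The median level over all genes was 6.68 to 6.93 on the arrays. The processing notes name RMA, which normalises across arrays, so these medians say little about brightness before processing. The defining markers followed the sorts. The median of 5 T cell markers was 9.60 to 12.18 on the arrays of the T and NKT cells and 5.24 to 7.43 elsewhere, the median of 6 NK cell markers was 11.61 to 12.06 on NK arrays, and the median of 6 mature neutrophil markers was 12.69 to 13.35 on neutrophil arrays. Markers of other cells were also present, with B cell medians of 8.05 to 9.56 on gamma-delta T cell arrays and macrophage medians of 8.03 to 10.40 on NKT arrays. The only gamma-delta marker measured stood at 7.83 to 8.47 on gamma-delta T cell arrays and at 6.84 to 7.64 elsewhere. Several labels differ within a type. Baseline replicates 1 and 2 are described as dissociated and stained, and replicate 3, where a preparation is given, as dissociated and digested. Interferon arrays share the latter wording in neutrophils, dendritic cells and the CD8+, regulatory and gamma-delta T cells, and carry yet another in NK, NKT and CD4+ T cells. The third macrophage baseline array and the macrophage interferon array carry none. Neutrophils have no baseline replicate 3, so their treatment and preparation wording cannot be told apart. CD8+ T cell baseline replicates 1 and 2 are labelled as blood, and the preparation of macrophage baseline replicates 1 and 2 names the spleen, which leaves the tissue of those 4 arrays unsettled.

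The bases upstream of 6 of the genes are shown because these genes carry the patterns described further on: Ccnb2 and Cdk1 moved with most of the list, Mki67 and Cenpe were higher after interferon, and Kif23 and Mcm6 set neutrophils apart. Each run holds the 150 bases before the annotated start, from the RefSeq promoter table (GRCm38.p6), 5′ to 3′ on the strand of the gene. Capitals mark exact matches on either strand to the CHR element (TTTGAA or TTTAAA), the CCAAT box (CCAAT) or an E2F site (TTCCCGC, its relative TTGGCGC, the form TTCGCGC, or lastly TTGCCGC), and E2F matches on opposite strands can overlap.
Ccnb2, chr9:70421555-70421704, minus strand: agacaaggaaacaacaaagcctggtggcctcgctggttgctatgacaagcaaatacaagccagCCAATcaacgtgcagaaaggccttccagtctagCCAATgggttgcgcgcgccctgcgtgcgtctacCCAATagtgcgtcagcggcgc
Cdk1, chr10:69352913-69353062, minus strand: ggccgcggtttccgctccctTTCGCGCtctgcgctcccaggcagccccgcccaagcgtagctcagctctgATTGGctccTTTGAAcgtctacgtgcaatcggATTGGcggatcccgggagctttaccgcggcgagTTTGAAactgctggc
Mki67, chr7:135716380-135716529, minus strand: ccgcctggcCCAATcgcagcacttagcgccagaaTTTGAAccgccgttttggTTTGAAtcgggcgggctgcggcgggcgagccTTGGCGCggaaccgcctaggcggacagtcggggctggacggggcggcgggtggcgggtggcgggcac
Cenpe, chr3:135212413-135212562, plus strand: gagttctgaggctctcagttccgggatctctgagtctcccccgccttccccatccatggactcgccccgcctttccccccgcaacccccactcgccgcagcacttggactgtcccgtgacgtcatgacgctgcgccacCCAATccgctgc
Kif23, chr9:61946800-61946949, minus strand: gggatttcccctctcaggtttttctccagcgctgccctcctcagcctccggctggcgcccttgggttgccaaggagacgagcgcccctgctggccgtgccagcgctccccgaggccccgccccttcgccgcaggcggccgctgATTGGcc
Mcm6, chr1:128359706-128359855, minus strand: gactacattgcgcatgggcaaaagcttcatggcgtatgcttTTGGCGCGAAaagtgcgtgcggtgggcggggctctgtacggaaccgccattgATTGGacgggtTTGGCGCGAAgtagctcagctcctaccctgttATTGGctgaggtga

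All 6 stretches held at least 1 CCAAT box, and Ccnb2 held 3 on the strand of the gene. CHR matches lay within the stretches of Cdk1 and Mki67, each of which held 2, while those of Cenpe and Kif23 fell just after the start. Ccnb2 had a CHR match upstream of its stretch and another just after the start. E2F matches lay within the stretches of Cdk1, Mki67 and Mcm6, and Mcm6 held overlapping pairs on opposite strands. Over the whole window of 250 bases before and 50 after the start, 30 of the 35 genes had an entry. A CCAAT box lay in the windows of 23 of them (76.7%, against 41.1% of 27025 genes in the table), a CHR match in 21 (70.0% against 30.6%) and an E2F match in 8 (26.7% against 10.9%). In the 250 bases before the start alone, the CHR share was 50% against 28.1%. These are matches of letters and were not measured as binding.

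Before treatment, the mean level of the 35 genes was 7.69, 8.10 and 8.15 in dendritic cell arrays 1 to 3 and 7.20, 7.32 and 8.14 in macrophages, and the third NK array stood at 7.75. Single genes had other orders, as the mean level of Kif23 was highest in neutrophils, and that of Ccne1 in CD8+ T cells (8.79, 8.48 and 8.52), of Mcm2 in NKT cells (9.26, 9.21 and 9.10) and of Mcm6 in NK cells (9.36, 9.06 and 9.60), where arrays of other types overlapped it. Mki67, which encodes the proliferation antigen Ki-67, stood at 9.17, 9.81 and 9.38 in dendritic cell baseline arrays 1 to 3. It stood at 8.56, 8.39 and 9.06 in macrophages and at 7.74 and 8.0 in neutrophils. In the 6 lymphocyte types every baseline value of Mki67 lay between 6.59 and 8.15, below all dendritic cell and macrophage arrays. A gene was called when its limma adjusted p was below 0.05 and its difference at least 1 on the log2 scale, which is 2-fold. Levels differed among the 9 baseline groups at adjusted p below 0.05 (limma F test) for 34 of the 35 genes, and the same was true of 56.4% of all genes. Mad2l1, a spindle checkpoint protein, was the exception (adjusted p = 0.112).

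**Figure D1:**
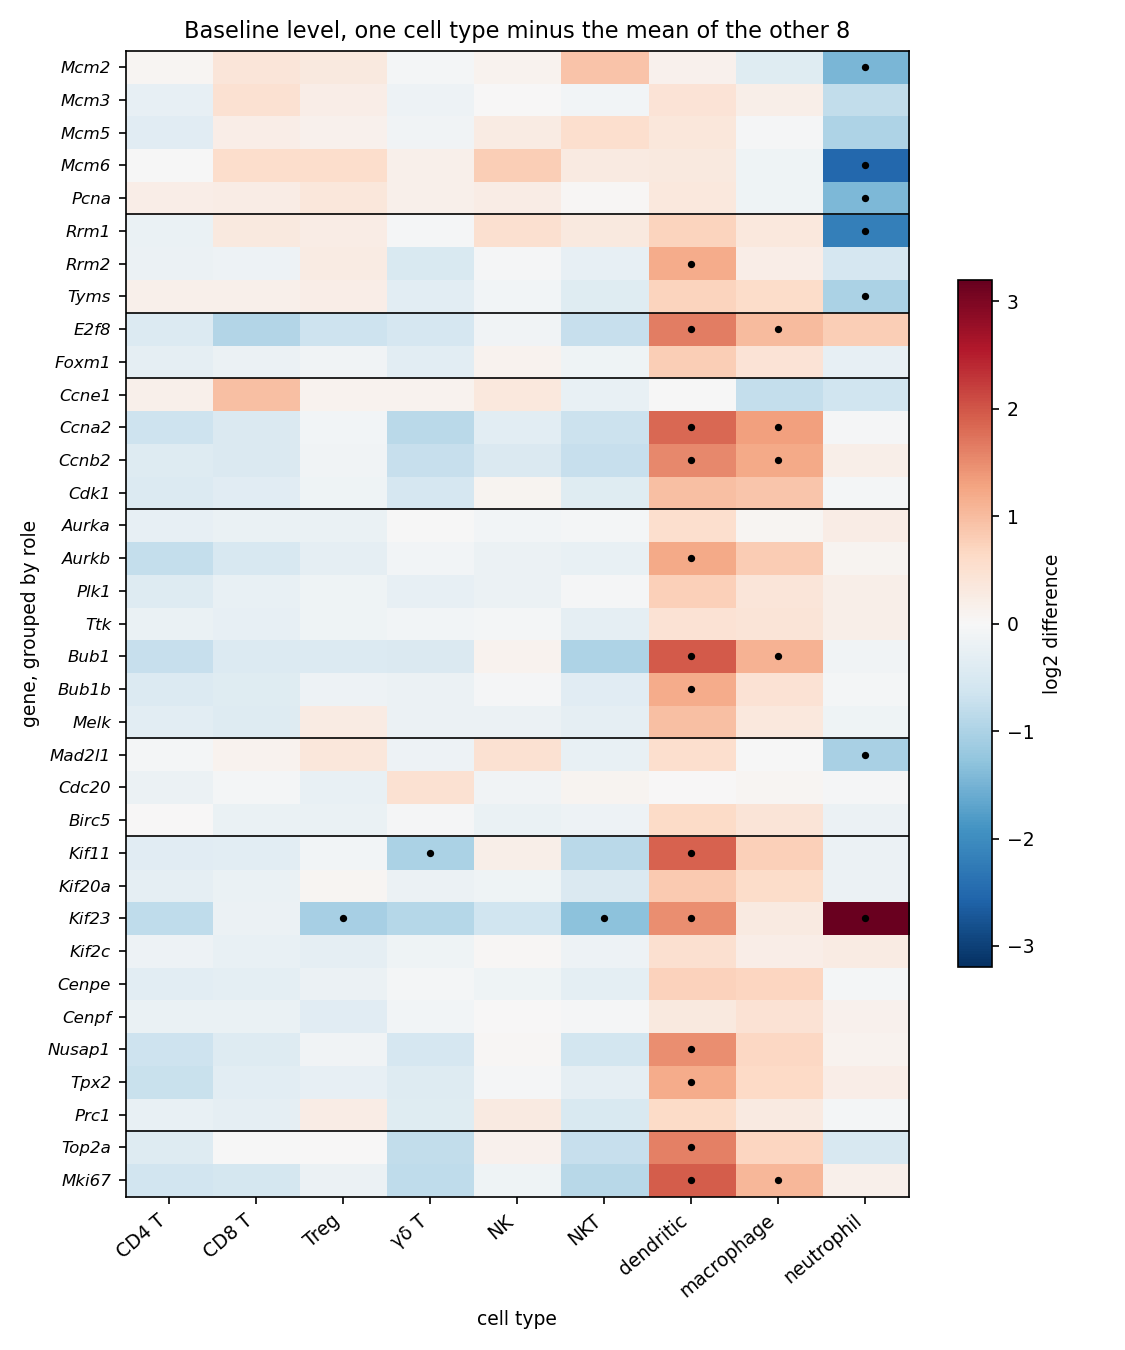
Heat map of the log2 difference between the baseline level in each cell type and the mean of the other 8, for the 35 genes grouped by role (rows) and 9 cell types (columns). Dots mark differences of at least 1 with a limma adjusted p below 0.05: 13 in the dendritic cell column, 5 in macrophages and 7 in neutrophils, with Kif23 the darkest cell at 3.17.

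In dendritic cells 13 of the 35 genes were called higher than in the other 8 types, against 4.84% of all genes, and 0 were called lower (0 at an unadjusted limma p below 0.05), against 2.48%. The median difference of the 35 genes was 0.76, against -0.05 over all genes. Bub1, a spindle checkpoint kinase, stood at 7.39, 7.84 and 7.41 (mean 7.55 ± 0.25, SD, n = 3) and was higher by 1.95 on the log2 scale (SE 0.27, adjusted p = 4.01e-07). Mki67 was also higher by 1.95 (SE 0.22, adjusted p = 9.9e-09). Kif11, the kinesin that pushes spindle poles apart, stood at 8.28, 8.65 and 8.77 and was higher by 1.89 (SE 0.32, adjusted p = 1.42e-05), and the third baseline arrays of NK cells (8.37) and macrophages (8.39) were the only ones of other types to reach this range. The other genes called were Ccna2, E2f8, Top2a, Ccnb2, Kif23, Nusap1, Aurkb, Tpx2, Bub1b and Rrm2, with differences of 1.18 to 1.84. With no minimum difference, 27 genes passed in dendritic cells (11.4% of all genes). On these arrays the dendritic cell marker median was 10.84, 11.20 and 11.57, the macrophage marker median 10.57, 10.01 and 10.08 and the mature neutrophil marker median 8.05, 7.98 and 7.48. The part of macrophages and neutrophils in these differences was not tested.

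By role, all 7 mitotic kinases and all 9 kinesins and spindle proteins passed the test at adjusted p below 0.05 in dendritic cells, as did the 3 nucleotide synthesis genes. The 5 replication genes Mcm2, Mcm3, Mcm5, Mcm6 and Pcna did not pass, with differences of 0.14 to 0.43. Ccne1, the cyclin of S-phase entry, and Cdc20, an activator of the anaphase-promoting complex, differed by -0.01 and 0.02. Dendritic cells also held Ccnd1, a cyclin of cell cycle entry and no member of the list, 4.15 above the other types (SE 0.13, adjusted p = 6.13e-23).

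In macrophages 5 genes were called higher, namely Ccna2 (difference 1.32), Ccnb2 (1.21), Bub1 (1.11), Mki67 (1.07) and E2f8 (1.00), against 6.16% of all genes, and the median of the 35 was 0.42. This count rested on 1 array. Without the third macrophage baseline array 0 genes were called, with replicates 1 and 2 alone 2 were, and with replicate 3 alone 12 were. Ccna2, the S-phase and mitotic cyclin A2, stood at 7.88, 8.41 and 9.59 in macrophage baseline arrays 1 to 3. Macrophages, like dendritic cells, were high in Ccnd1 (difference 2.77, SE 0.13, adjusted p = 1.47e-18), and they were low in the related cyclin Ccnd2 (-3.50, SE 0.21, adjusted p = 6.75e-16).

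Neutrophils combined low replication genes with a very high Kif23. Mcm6, a subunit of the replicative helicase, stood at 6.44 and 6.34 in the 2 neutrophil baseline arrays and at 8.12 to 9.60 in the 24 baseline arrays of the other types, with no overlap. It was lower by 2.52 on the log2 scale (-2.52, SE 0.17, adjusted p = 3.32e-14). Rrm1, the large subunit of ribonucleotide reductase, stood at 6.57 and 6.28 and differed by -2.19 (SE 0.24, adjusted p = 2.63e-09), and it too lay below every other baseline array. Mcm2 (-1.46), Pcna (-1.44), Mad2l1 (-1.03) and the thymidylate synthase gene Tyms (-1.02) were the other genes called lower, which makes 6 of 35 against 10.1% of all genes. The calls of Mad2l1 and Tyms lay near the threshold, and Mad2l1 lost its call when either neutrophil baseline array was left out (adjusted p = 0.0734 and 0.16). The remaining helicase subunits Mcm3 and Mcm5 passed without the minimum difference, at -0.78 and -0.99, as did 21.8% of all genes in this direction.

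Kif23, a kinesin of the central spindle that is needed for cytokinesis, went the other way. Its levels were 10.55 and 10.81 in neutrophil baseline arrays, 9.0 to 9.30 in dendritic cells, 7.79 to 8.70 in macrophages and 6.48 to 7.87 in lymphocytes. The neutrophil difference of 3.17 (SE 0.21, adjusted p = 2.15e-14) was called, where 6.03% of all genes were called higher. Against the mean of the same 8 types Ccna2 differed by -0.05 (SE 0.46, adjusted p = 0.94), Aurkb by 0.09 and Cdk1 by -0.06. Ccna2 was at 5.91 to 7.07 in lymphocyte baseline replicates 1 and 2 and at 7.27 to 8.76 in replicate 3. It stood at 7.26 and 7.55 in the neutrophil baseline arrays. The median of 10 neutrophil precursor markers was 7.35 and 7.63 on these arrays and 5.70 to 6.79 on all arrays of other cell types, and the median of 7 B cell markers was 8.58 and 7.82. The part of these cells in the levels of Kif23 was not tested.

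Among lymphocytes Kif23 and Kif11 were the listed genes called. The median difference of the 35 genes ran from -0.29 in CD4+ T and NKT cells to -0.03 in NK cells. Over all genes the medians of the lymphocyte types ran from -0.09 to 0.06. Kif23 was called lower in NKT cells (-1.32) and regulatory T cells (-1.07), where 1.45% and 1.95% of all genes were called lower. Kif11 was called lower in gamma-delta T cells (-1.02, where 1.44% of all genes were called lower), and that call was lost without any of 6 single arrays, the third baseline arrays of NK, NKT, regulatory T cells and macrophages and the first or second of gamma-delta T cells. The call of Kif23 in regulatory T cells was lost without their second baseline array (-0.93). No listed gene was called in NK cells, CD8+ T cells or CD4+ T cells, where 3, 4 and 0 were higher and 1, 7 and 13 lower at an unadjusted limma p below 0.05. Of all genes 2.39%, 1.81% and 1.07% were called higher there and 2.3%, 2.68% and 2.35% lower.

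Within baseline, the third array read higher than the first 2 in macrophages, NK cells and regulatory T cells, and less so elsewhere. The mean level of the 35 genes was 6.98 and 6.82 in NK baseline arrays 1 and 2 and 7.75 in array 3. In macrophages it was 7.20 and 7.32 against 8.14, and in regulatory T cells 7.0 and 6.79 against 7.55. In CD4+ T cells the 3 values were 6.97, 6.73 and 6.98, so that the third array was level with the first. The third array was near the second in CD8+ T cells (6.87, 7.10 and 7.16) and dendritic cells (7.69, 8.10 and 8.15). By type, the median difference of the 35 genes between array 3 and the first 2 was 0.88 in macrophages, 0.85 in NK cells, 0.58 in regulatory T cells and 0.18 to 0.27 in the other 5 types. Array 3 was above both others for 35 of 35 genes in macrophages (37.1% of all genes), 33 in NK cells (30.4%), 30 in regulatory T cells (45.0%) and 25 in NKT cells (31.4%). In gamma-delta T, CD8+ T and dendritic cells the count was 21 each (30.6%, 46.1% and 33.8% of all genes), and in CD4+ T cells it was 19 (53.6%).

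**Figure D2:**
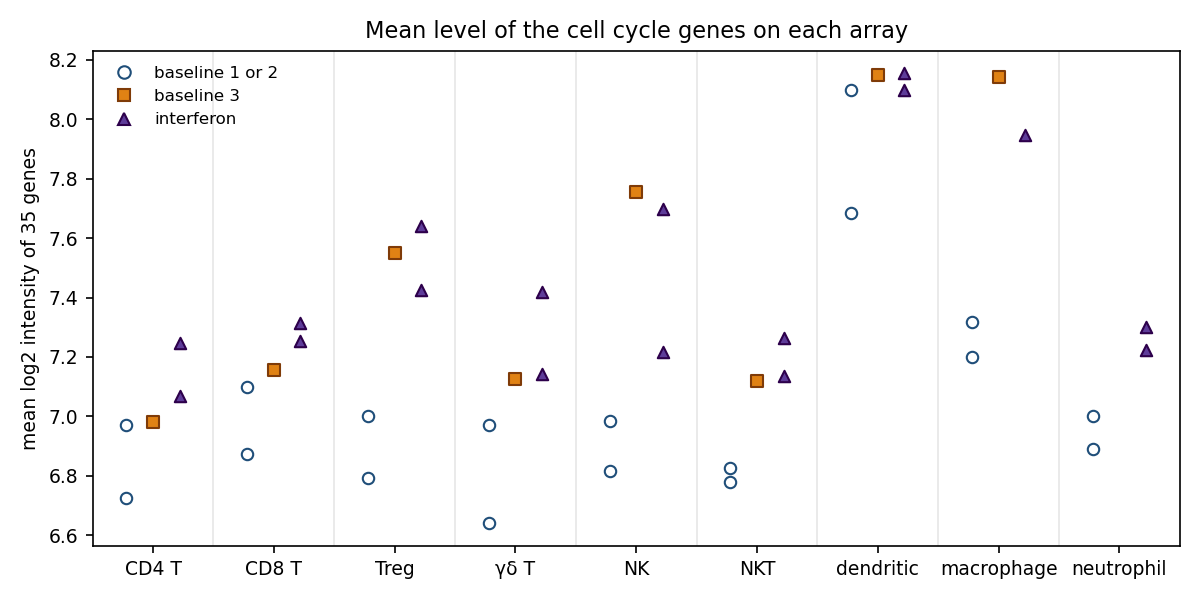
Mean log2 intensity of the 35 genes on each of the 43 arrays, by cell type, with open circles for baseline replicates 1 and 2, squares for baseline replicate 3 and triangles for interferon arrays. Each square lies above both open circles of its type, by the widest gaps in NK cells, regulatory T cells and macrophages (7.75, 7.55 and 8.14). In CD4+ T cells the square is level with the higher circle (6.98 against 6.97).

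Averaged over the 8 types with a replicate 3, all 35 genes had a positive difference between replicate 3 and replicates 1 and 2. At adjusted p below 0.05, 22 passed with no minimum difference, against 0.81% of all genes, and 0 were lower (0 at an unadjusted limma p below 0.05), against 0.284%. The median was 0.42, against 0.01 over all genes. Of the 160 genes that were higher in the third arrays, 22 were of the list and 15 more were on other cell cycle lists, and 12 of the 30 genes with the smallest p were of the list. Ccna2 had the smallest adjusted p of all genes. Its levels were 6.80 and 5.91 against 8.76 in NK cells, 7.02 and 6.61 against 8.5 in regulatory T cells and 6.60 and 5.95 against 7.51 in gamma-delta T cells. The third array was above both others in 8 of 8 types, and the mean difference was 1.21 (SE 0.15, adjusted p = 0.000732). Ccna2 was 1 of 3 genes in the whole table that were called here at 2-fold or more (0.0152% of all genes).

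Cdk1, Kif20a and Nusap1 were likewise above both other arrays in all 8 types, and 47 genes of the table (0.238%) showed this. Cdk1, the kinase that drives mitotic entry, stood at 6.99 and 6.90 against 7.88 in NK cells and at 7.49 and 7.72 against 8.69 in macrophages. Its mean difference was 0.72 (SE 0.12, adjusted p = 0.00269). Nusap1, which bundles spindle microtubules, stood at 5.99 and 6.08 against 7.34 in NK cells and at 5.97 and 5.75 against 7.29 in regulatory T cells, and its mean difference was 0.82 (SE 0.13, adjusted p = 0.00269). Ccnb2 was at 7.87 and 7.61 against 9.26 in NK cells and at 7.81 and 8.48 against 8.43 in CD8+ T cells, where array 3 lay between the others. Its mean difference was 0.91 (SE 0.14, adjusted p = 0.00165). Rrm2, the regulated small subunit of ribonucleotide reductase, stood at 7.07 and 6.66 against 8.47 in NK cells and at 6.91 and 7.30 against 8.67 in macrophages, with a mean difference of 0.69 (SE 0.12, adjusted p = 0.00471). By role, 3 of 4 cyclins and CDK1, 5 of 7 mitotic kinases, 6 of 9 kinesins and spindle proteins, both transcription factors, 2 of 3 nucleotide synthesis genes, 1 of 3 checkpoint and anaphase genes and 1 of 2 chromosome genes passed. Among replication genes Mcm3 (0.43) and Mcm2 (0.30) passed. The genes that did not pass included Mki67 (0.31, adjusted p = 0.29), Ccne1 (0.10), Cenpe (0.07) and Cenpf (0.03, adjusted p = 0.902).

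The count depended on few arrays. It was 11 without the third macrophage array, 13 without the third NK array, 13 when the baseline arrays were fitted alone and 0 without the third arrays of macrophages, NK cells and regulatory T cells together, an omission chosen after seeing the data. Over the 5 types left by that omission, 33 of 35 genes had a positive mean difference, with a median of 0.17. Within a single type only Kif20a in macrophages was called (6.56 and 6.67 against 8.03, difference 1.41, adjusted p = 0.013, where 0.0253% of all genes were called higher), and not without macrophage baseline array 1 (adjusted p = 0.135). The surface labels of some replicate 3 arrays also differ, as NK cells are labelled NK1.1+ TCRb- in replicates 1 and 2 and NK1.1+ in replicate 3, and the T cell marker median of these arrays was 7.09 and 7.43 against 7.24. On average over the 8 types 0 of the 79 genes of 15 marker lists passed (9 higher and 5 lower at an unadjusted limma p below 0.05). The 6 interferon-induced reference genes had a median difference of 0.47, and 3 passed. The part of these genes in the difference was not tested, and replicate number and preparation wording cannot be told apart.

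After interferon the listed genes were slightly higher on average than on all baseline arrays together. The interferon-induced reference gene Rsad2 rose in all 9 types, by 4.38 on average (SE 0.09, adjusted p = 5.66e-28). Against all baseline arrays the 35 genes had a median mean change of 0.25, against -0.01 over all genes, and 32 of 35 changes were positive. At adjusted p below 0.05, 18 genes were higher (9.55% of all genes) and 0 lower (0 at an unadjusted p below 0.05, limma), where 17.5% of all genes were lower. None reached a mean change of 1 (1.26% of all genes did), and 23 were higher at an unadjusted p below 0.05. Kinesins and spindle proteins made up 7 of the 18, and all 4 of cyclins and CDK1 were among them. Kif2c, Ttk and Cenpf, also among the 18, stayed on every array below the level of 7 used to leave out dim genes. Aurka, Cdc20, Kif23 and the replication genes Mcm2, Mcm3, Mcm5 and Pcna did not pass, with changes of -0.05 to 0.08.

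**Figure D3:**
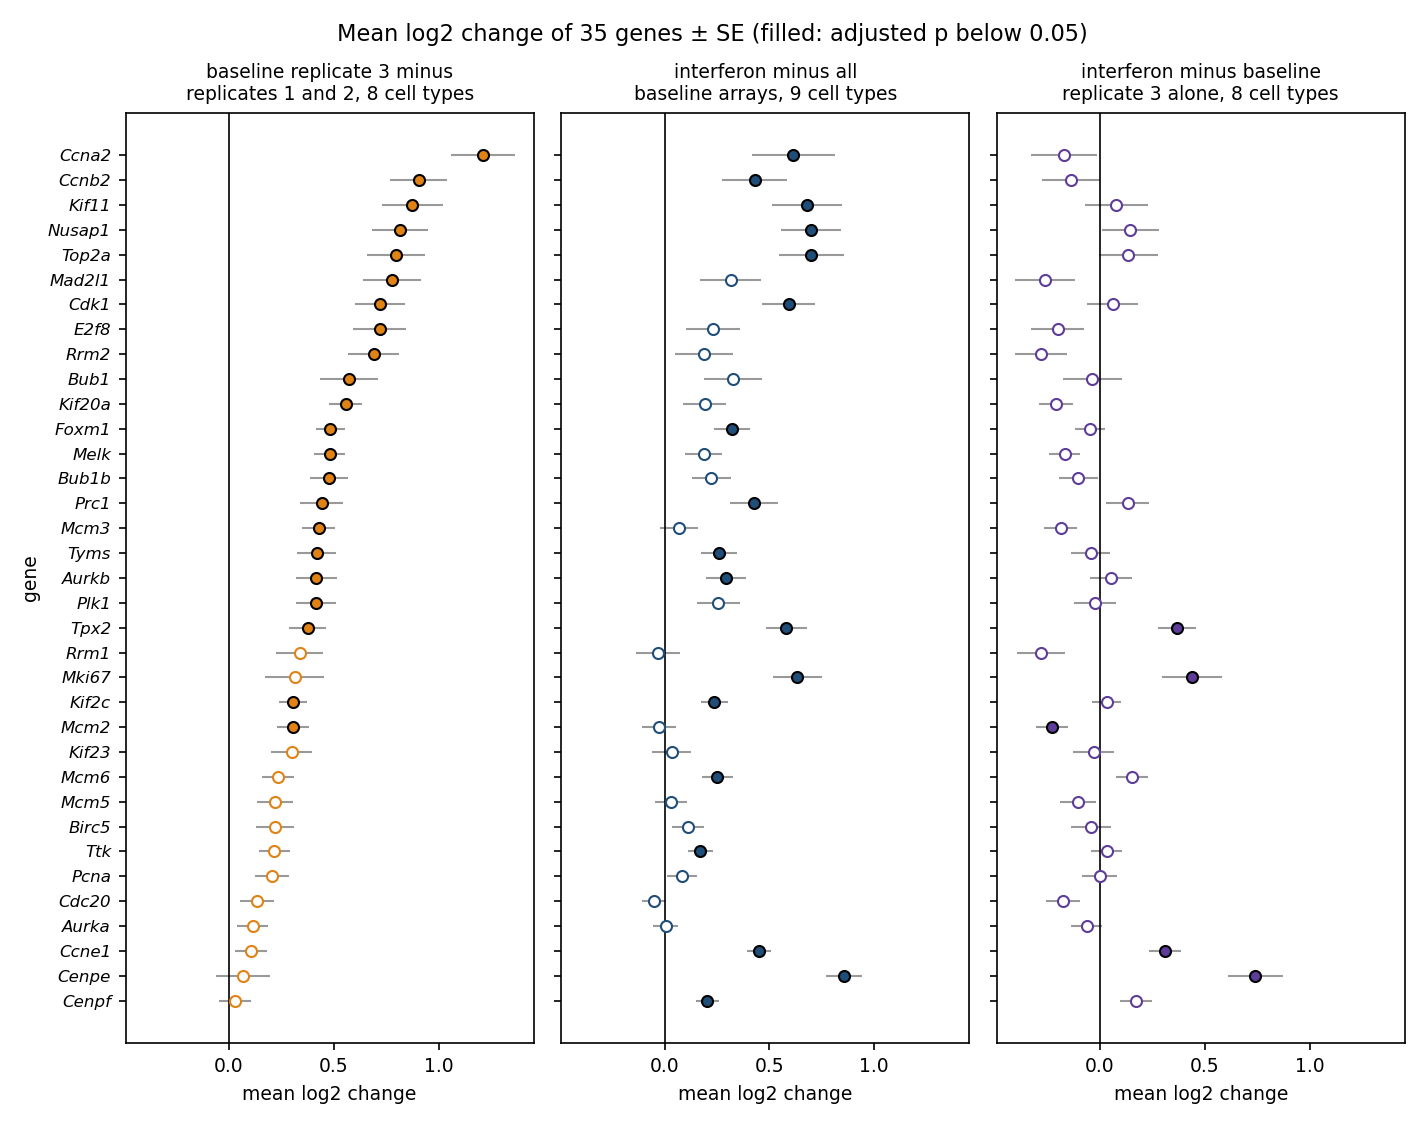
Mean log2 change ± SE of each of the 35 genes in baseline replicate 3 against replicates 1 and 2 (left), after interferon against all baseline arrays (middle) and after interferon against baseline replicate 3 alone (right); filled points have a limma adjusted p below 0.05. Filled points number 22, 18 and 5, and Ccna2 at the top moves from 1.21 and 0.61 to -0.17.

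The change depended on which baseline arrays were used. Neutrophils, which have no replicate 3, are also left out of the comparison with replicate 3 alone. The 3 comparisons share arrays, so their values are set side by side and not correlated. Ccna2 was higher by 0.61 against all baseline arrays and stood at -0.17 against replicate 3 alone (adjusted p = 0.574). Ccnb2, the mitotic cyclin B2, went from 0.43 to -0.14, Top2a, which untangles replicated DNA, from 0.70 to 0.14 and Kif11 from 0.68 to 0.08. Top2a in NK cells stood at 7.09 and 6.21 in baseline arrays 1 and 2, at 8.41 in array 3 and at 8.5 and 7.43 after interferon, so that array 3 lay between the interferon arrays. In gamma-delta T cells it stood at 6.58, 6.20 and 6.44 against 8.15 and 7.25, and there array 3 lay with the other baseline arrays. Against replicate 3 alone, over the 8 types that have it, the median was -0.04, 4 genes were higher (4.99% of all genes) and Mcm2 was lower (-0.23, adjusted p = 0.0375, where 12.2% of all genes were lower). Mcm2 in macrophages stood at 7.64, 7.85 and 8.62 at baseline and at 8.05 after interferon, and in NKT cells at 9.26, 9.21 and 9.10 against 8.43 and 8.76. When the fit included the preparation wording of the first 2 baseline arrays as a covariate, the median was -0.04, and 2 genes, Cenpe and Ccne1, were higher (4.87% of all genes). With replicate number as a covariate the median was 0.38, and 26 genes were higher (10.8% of all genes). In that fit the third baseline arrays had a term that no interferon array shared.

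Cenpe, Ccne1, Tpx2 and Mki67 were the 4 genes higher than replicate 3. Cenpe, a centromere kinesin that attaches chromosomes to the spindle, stood at 4.70 to 6.12 over all baseline arrays. That is below the level of 7 used to leave out dim genes, which it reached only on dendritic cell and macrophage interferon arrays. In dendritic cells it stood at 5.78, 6.07 and 5.77 at baseline and at 7.12 and 7.19 after interferon. In macrophages it stood at 5.61, 5.75 and 6.12 against 7.27, and in neutrophils at 4.99 and 5.34 against 6.34 and 6.83. The interferon arrays lay above all baseline arrays in these 3 types and also in CD8+ T, regulatory T, NK and NKT cells. Cenpe was called in dendritic cells (1.28, SE 0.25, adjusted p = 0.000503), macrophages (1.45, SE 0.31, adjusted p = 0.00457) and neutrophils (1.42, SE 0.27, adjusted p = 0.000336). In these types 2.34%, 1.35% and 2.43% of all genes were called higher. Its mean change was 0.85 (SE 0.09, adjusted p = 9.74e-10) and 0.74 against replicate 3 (SE 0.13, adjusted p = 0.000199). The interferon arrays of CD4+ T cells (5.09 and 5.78) and gamma-delta T cells (6.18 and 5.10) overlapped their baseline arrays. Against replicate 3 alone Cenpe was called in dendritic cells (1.38, adjusted p = 0.0353) and not in macrophages (1.16, adjusted p = 0.244), and neutrophils have no replicate 3.

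Ccne1 stood at 7.15 and 7.20 in neutrophil baseline arrays and at 8.25 and 8.10 after interferon. In CD8+ T cells it was 8.79, 8.48 and 8.52 against 9.33 and 9.0. Its mean change was 0.45 (SE 0.06, adjusted p = 1.21e-07), and 0.31 against replicate 3 (adjusted p = 0.00495). Both interferon arrays of a type lay above every baseline array in CD4+ T, CD8+ T, regulatory T, NKT and dendritic cells and neutrophils, and the macrophage array did so too.

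Tpx2, which nucleates spindle microtubules and activates Aurora A, stood at 7.01, 7.60 and 7.78 in dendritic cell baseline arrays and at 8.52 and 8.60 after interferon. The change of 1.10 was called (SE 0.28, adjusted p = 0.00997). Without the first baseline array or either interferon array of dendritic cells it was not (adjusted p = 0.0999, 0.0688 and 0.143), nor against replicate 3 alone (0.78, adjusted p = 0.123). In CD4+ T cells Tpx2 stood at 6.05, 5.69 and 5.57 against 6.60 and 6.67. Mki67 was called in NKT cells, with 6.74, 6.90 and 7.18 against 8.44 and 7.96 (change 1.25, SE 0.33, adjusted p = 0.0136, where 2.89% of all genes were called higher). It was also called in gamma-delta T cells, with 6.76, 6.59 and 7.67 against 8.52 and 7.76 (change 1.14, SE 0.33, adjusted p = 0.0331, where 1.53% were). Both calls were lost without the first baseline array or the first interferon array of the type, and that in gamma-delta T cells also without its second baseline array. Neither was called against replicate 3 alone, where the change was 1.01 in NKT cells (adjusted p = 0.275) and 0.48 in gamma-delta T cells (adjusted p = 0.685), or with the preparation covariate, where it was 1.05 (adjusted p = 0.0507) and 0.93 (adjusted p = 0.113). On NKT arrays the NK cell marker median was 8.64, 8.54 and 8.83 at baseline and 9.35 and 9.85 after interferon, and the T cell marker median was 10.78, 10.82 and 11.02 against 10.02 and 10.17. On gamma-delta T cell arrays the NK cell marker median was 9.66, 7.55 and 6.03 at baseline and 6.66 and 6.97 after interferon. The part of NK cells in the Mki67 changes was not tested.

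**Figure D4:**
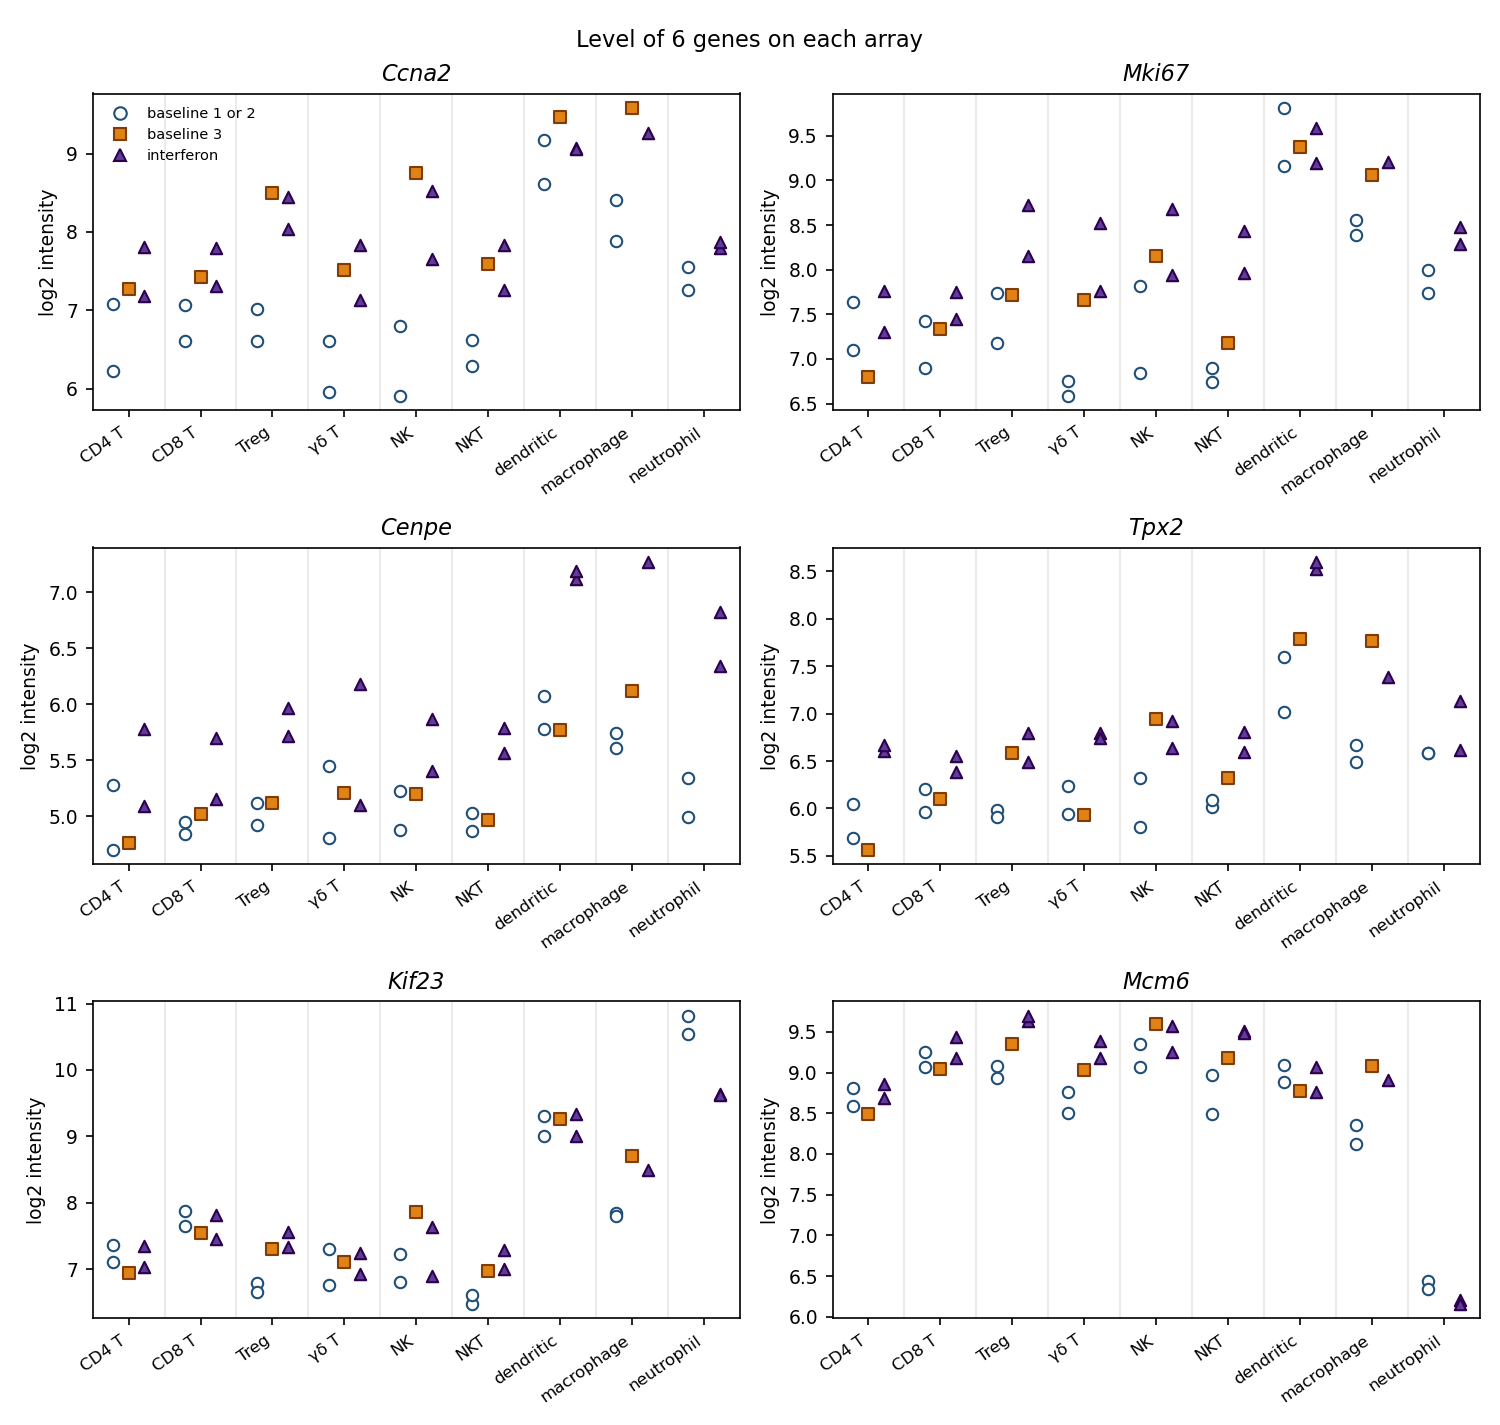
Log2 intensity of Ccna2, Mki67, Cenpe, Tpx2, Kif23 and Mcm6 on each array, by cell type, with open circles for baseline replicates 1 and 2, squares for baseline replicate 3 and triangles for interferon arrays; the vertical axes differ. Cenpe triangles lie above all baseline points in every type but CD4+ and gamma-delta T cells, and Kif23 in neutrophils falls from 10.55 and 10.81 to 9.64 and 9.63.

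No listed gene was called after interferon in NK cells or in CD4+, CD8+ or regulatory T cells (2, 6, 2 and 8 were higher at an unadjusted limma p below 0.05, and 0 lower), where 1.25%, 0.901%, 1% and 1.11% of all genes were called higher. Counts of genes whose interferon arrays all lay above all baseline arrays ranged from 2 of 35 in NK cells (13.4% of all genes) and 5 in dendritic cells (17.0%) to 15 in NKT cells (12.4%) and 24 in neutrophils (29.6%), which have no baseline replicate 3. In NK cells those 2 were Cenpe and Pcna. Against replicate 3 alone only Tpx2 in CD4+ T cells (1.07) and Cenpe in dendritic cells (1.38) were called, where 0.932% and 1.87% of all genes were called higher.

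Kif23 was the only listed gene called lower after interferon. In neutrophils it stood at 10.55 and 10.81 at baseline and at 9.64 and 9.63 after interferon, a change of -1.04 (SE 0.29, adjusted p = 0.0138), where 2.85% of all genes were called lower. Its change there differed from the mean change in the other 8 types by -1.21 (adjusted p = 0.0149), where 1.31% of all genes differed in this direction. Both calls were lost when the second neutrophil baseline array or the first interferon array was left out, and the difference also without the first baseline array. With quantile normalisation the change was -0.83 (adjusted p = 0.0398), short of 2-fold, and the difference kept its call (-1.03, adjusted p = 0.0253). On these arrays the B cell marker median was 8.58 and 7.82 at baseline and 6.26 and 6.34 after interferon, and 5 of 7 B cell markers were called lower. Neutrophil precursor medians were 7.35 and 7.63 against 7.82 and 7.92. The part of these cells in the fall of Kif23 was not tested. Both neutrophil baseline arrays are described as stained and both interferon arrays as digested, so treatment and preparation cannot be told apart here. In the other types 0 listed genes were called lower (limma, with 1 each in gamma-delta T and NKT cells at an unadjusted p below 0.05), where 0.0658%, 0.319%, 0.0253%, 0.683%, 0.537%, 0.38%, 0.81% and 0.263% of all genes were, in the order CD4+, CD8+, regulatory and gamma-delta T cells, NK, NKT and dendritic cells and macrophages. An F test over the 9 interferon changes found 0 listed genes that differed between types at adjusted p below 0.05 (4.16% of all genes did, and 3 listed genes were below 0.05 unadjusted).

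Other cell cycle genes, from lists that hold none of the 35, were also read after interferon. Of 31 other replication genes 9 were higher and 2 lower on average at adjusted p below 0.05, of 44 other mitotic genes 19 were higher and 1 lower, and of 15 E2F, MYB and pocket protein genes 3 were higher and 5 lower, where 9.55% of all genes were higher and 17.5% lower. These counts also depended on the baseline arrays. Against replicate 3 alone, over 8 types, 4 replication genes were higher and 3 lower, 2 mitotic genes were higher and 4 lower, and 3 E2F, MYB and pocket protein genes were higher and 4 lower (4.99% and 12.2% of all genes). With the preparation covariate the counts were 4 higher and 1 lower, 1 higher and 4 lower, and 3 higher and 5 lower in that order (4.87% and 12.7% of all genes). The pocket protein gene Rbl1, which encodes the E2F-binding repressor p107, rose by 1.68 (SE 0.10, adjusted p = 7.15e-16) and by 1.37 against replicate 3. The clamp loader subunit Rfc3 rose by 1.30 (1.20 against replicate 3), the stress-induced growth arrest gene Gadd45g by 1.24 (1.51) and the securin gene Pttg1 by 1.19 (0.94). Samhd1, which degrades deoxynucleotides, rose by 1.10 (1.05), and Slfn2, which is needed for T cell quiescence, by 1.07 (1.09). Within NK cells Myc rose by 1.79 (SE 0.26, adjusted p = 9.33e-06) and Cdc25b, a phosphatase that activates CDK1, fell by 1.34 on the log2 scale (-1.34, adjusted p = 4.67e-05).

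Across the 43 arrays most listed genes followed one another. Kif11, Ccna2 and Top2a correlated with the mean level of the other listed genes at r = 0.95, and Nusap1 and Bub1b at 0.94 and 0.93. Mcm2 (0.09), Mcm6 (0.15), Pcna (0.20), Ccne1 (-0.05) and Cdc20 (-0.02) did not. Within groups, after each group mean was subtracted, Mcm2 reached 0.76 and Mcm6 0.65, while Cenpf was at 0.08 and Ccne1 at 0.34. Kif23 rose from 0.42 across arrays to 0.87 within groups. Of genes outside the list, those nearest to its mean level were Ncapg (r = 0.95), Kif15 (0.94), Esco2 (0.92), Dtl (0.92), Pclaf (0.92), Stil (0.91), Ncaph (0.90), Kntc1 (0.90), Cdca8 (0.89), Fignl1 (0.89), Cep55 (0.89), Ncapg2 (0.88), Cip2a (0.88), Spag5 (0.88) and Hmmr (0.88). Ncapg and Ncaph encode condensin subunits, and 6 of the 15 were on the other cell cycle lists. The median r of all other genes was -0.10. These correlations over 43 arrays share cell types and preparation and are given as descriptions.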

How the data were processed

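Each deposited column holds the authors' linear intensity of every probe set on 1 array. Affymetrix Power Tools and RMA, which summarises probes and normalises across arrays, are named in the submitters' processing notes, with no version; the sources used here give no genome build. The 43 columns were log2-transformed without further scaling. Of 24922 probe sets, 21425 carried 1 symbol in GEO's platform annotation, 1399 several and 2098 none, and the brightest probe set of a symbol was kept, which gave 19752 genes. Detection was not called, and precision is limited by how many arrays a group has.

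Arrays formed 18 groups, 9 cell types at baseline or after interferon, which shared 1 linear model in limma 3.58.1 (lmFit, then eBayes; R 4.3.3) with 25 residual degrees of freedom. All adjusted p-values are two-sided, from limma, with Benjamini-Hochberg adjustment over all genes of a comparison. Comparisons with baseline replicate 3 used a fit of 26 groups (17 residual degrees of freedom), in which a lone array is assumed to vary like the others. Nothing in the labels says that arrays came from separate animals, so a p-value reflects the spread among these arrays alone, and that may be technical. The fits were tested on simulated data with known changes. Alternatives were a replicate block, a preparation term, fits of single types, dim genes (level of 7 reached on fewer than 2 arrays) left out, quantile normalisation, a variance trend, array weights, the mean of probe sets, the median of the genes in place of their mean, no minimum change, a shorter promoter window, other baseline arrays and each array left out. Replicate numbers were not taken as pairs. Of 16 same-numbered pairs 7 deviated together with a correlation over 0.1 (range -0.30 to 0.35). The 2 interferon arrays of a type deviate from their mean as mirror images, so these correlations could not decide whether the numbers pair the arrays.

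Any listed gene could be named. Of the other pathway genes at most the 6 largest called changes per comparison could be named, and of genes other than the 35 the 15 nearest to their mean level. The genes, lists and comparisons were chosen with earlier results of these data known. Promoter letters came from the RefSeq table for GRCm38.p6, where 30 of the 35 genes matched by symbol.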

Additional observations from a re-analysis of the deposited data

Results flagged for a closer look

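The change of Kif23 after interferon in neutrophils differed from its mean change in the other 8 cell types by -1.21 on the log2 scale (SE 0.31, limma adjusted p = 0.0149). This was the only pair of a listed gene and a cell type for which such a difference was called. Kif23 was lower in both interferon arrays than in both baseline arrays of neutrophils. The preparation wording also differs between these baseline and interferon arrays, so it cannot be told apart from treatment. No group held more than 3 arrays, so single outlying arrays were not tested for.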

How the results depend on the processing

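Counts below are of the 35 listed genes at 2-fold or more, by cell type, where they moved by more than 1.5 times. A count with no share of all genes beside it shows only how the calls moved. With baseline replicate 3 alone, 1 gene was higher after interferon in CD4+ T cells, 1 in dendritic cells and 0 in gamma-delta T cells, NKT cells and macrophages, and at baseline 7 were lower in CD4+ T cells, 0 lower in regulatory T cells and 12 higher in macrophages. Differences between types in the interferon change have no value there, because neutrophils, which hold the only such call, have no baseline replicate 3. With no minimum change, 3, 2, 2, 3, 1, 5 and 1 genes were lower at baseline in CD4+ T, CD8+ T, regulatory T, gamma-delta T, NK and NKT cells and macrophages, and 3, 1, 1, 2, 2, 27, 15 and 2 were higher in CD8+ T, regulatory T, gamma-delta T, NK, NKT and dendritic cells, macrophages and neutrophils, and 2 were higher after interferon in neutrophils. With array weights 1 gene was higher at baseline in CD8+ T cells and 0 lower in gamma-delta T cells, and 4, 0, 1, 3 and 8 were higher after interferon in regulatory T, gamma-delta T, NK and NKT cells and macrophages. With quantile normalisation 0 were lower at baseline in regulatory T cells, 3 and 2 higher in macrophages and neutrophils, 2 and 4 higher after interferon in gamma-delta T cells and neutrophils, and 0 lower in neutrophils. With the preparation term 0, 0 and 1 were higher after interferon in gamma-delta T, NKT and dendritic cells. Of all genes 1.36%, 2.81% and 2.14% were higher there. At baseline 2 listed genes were lower in NKT cells and 2 higher in neutrophils with this term. Baseline replicates 1 and 2 alone gave 1, 1, 2 and 2 higher at baseline in CD8+ T cells, NKT cells, macrophages and neutrophils and 2 lower in NKT cells. Fitting the arrays of a comparison alone gave 0 and 2 higher after interferon in gamma-delta T cells and neutrophils. With no minimum change, it gave 13 higher in replicate 3 in place of 22.

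The replicate numbers were not taken as pairs, and the correlations could not decide whether they pair the arrays. With the replicate block, genes higher after interferon numbered 1 in CD8+ T, 2 in regulatory T and 5 in gamma-delta T cells. They numbered 1 in NK cells, 4 in NKT cells and 2 in neutrophils. Of all genes 1.11%, 1.13%, 1.72%, 1.33%, 3.11% and 2.44% were higher in these types, in that order. At baseline 2 listed genes were lower in NKT cells and 2 higher in neutrophils. The mean interferon change passed for 26 listed genes with no minimum (10.8% of all genes).

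The mean interferon count of 18 was 2 with the preparation term, 4 higher and 1 lower with replicate 3 alone, and 3 with replicate 3 alone in the 4 types that share its wording, an alternative chosen after seeing the data. In that order the mean change reversed to -0.24, -0.17 and -0.14 for Ccna2 and -0.21, -0.14 and -0.15 for Ccnb2. It reversed to -0.034 and -0.045 for Tyms and to -0.019 and -0.048 for Foxm1 under the first 2, and to -0.020 for Ttk under the last. The replicate 3 count of 22 was 9 without CD8+ T cells and macrophages (2 at 2-fold) and 0 without the third arrays of macrophages, NK cells and regulatory T cells (0 at 2-fold), also chosen after seeing the data. The causes were not tested.

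Leaving out 1 array at a time gave 11 to 25 genes higher in replicate 3. At baseline it gave 0 to 7 higher in macrophages, 0 to 1 higher and 0 to 1 lower in CD8+ T cells, and 0 to 1, 0 to 4 and 1 to 4 lower in regulatory T, gamma-delta T and NKT cells. After interferon it gave 0 to 2, 0 to 1, 1 to 2 and 1 to 2 higher in gamma-delta T, NKT and dendritic cells and neutrophils, 0 to 1 lower in neutrophils, and 0 to 1 pairs with a lower change than in the other types. No change of a listed gene that passed reversed with 1 array left out. The other genes named, and the changes against replicate 3, were not refitted in this way. At most 2 interferon arrays a type, and 1 for macrophages after interferon, limit the precision of every interferon change.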
